A study of Mus musculus with 22 samples.

Results

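Stem cell identity genes are described here as a set of 9 genes, Mecom, Hlf, Procr, Ly6a, Cd34, Slamf1, Cd48, Fgd5 and Ctnnal1, chosen by name as genes that mark or maintain hematopoietic stem cells or as antigens by which these cells are sorted. All 9 were found among the 47311 annotated genes, and each value sums every transcript of a gene. RNA was measured in 22 libraries from 10 mice. Long-term hematopoietic stem cells (LT-HSCs) came from 2 wild-type (WT) and 2 knockout (KO) mice, and common myeloid progenitors (CMPs), granulocyte-macrophage progenitors (GMPs) and megakaryocyte-erythroid progenitors (MEPs) from 3 WT and 3 KO mice, with all 3 populations sorted from each mouse. KO mice were Arid1a f/f;Mx1-Cre+, in which exon 9 of the gene for the chromatin remodeling subunit ARID1A is deleted, and WT mice were Arid1a f/f;Mx1-Cre- littermates of the same sex that carry the same floxed alleles, all on C57BL/6. Both genotypes received poly(I:C), an inducer of interferon, in 5 doses of 300 µg at 8 to 14 weeks of age, and the cells were taken 4 weeks later. Mx1-Cre responds to interferon in many cell types and is not restricted to blood cells, so that recombination elsewhere in these mice is possible.

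A few hematopoietic stem cells renew themselves and give rise to all blood lineages, and their daughters lose stem cell transcripts as they become committed. Mecom and Hlf encode transcription factors that stem cells need to persist under stress or transplantation. Procr, Ly6a, Cd34, Slamf1 and Cd48 encode surface proteins, namely the protein C receptor EPCR, Sca-1, the sialomucin CD34 and the SLAM family receptors CD150 and CD48. Fgd5, which encodes a guanine nucleotide exchange factor, and Ctnnal1, which encodes alpha-catulin, are best known in this tissue as reporter genes for stem cells. In mouse marrow, CD150 is found on LT-HSCs and CD48 on the cells that descend from them.

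In GRCm38, Slamf1 (ENSMUSG00000015316) lies at chr1:171767127-171801184, Cd48 (ENSMUSG00000015355) at chr1:171682009-171705258 and Cd34 (ENSMUSG00000016494) at chr1:194938819-194961279, all on the plus strand. Procr (ENSMUSG00000027611) lies at chr2:155751117-155755471 and Fgd5 (ENSMUSG00000034037) at chr6:91978878-92076004, also on the plus strand. Mecom (ENSMUSG00000027684) at chr3:29951296-30548008, Ctnnal1 (ENSMUSG00000038816) at chr4:56810935-56865188, Hlf (ENSMUSG00000003949) at chr11:90336536-90390895 and Ly6a (ENSMUSG00000075602) at chr15:74994877-74998031 lie on the minus strand. The number of annotated transcripts summed ranged from 2 for Slamf1 and Cd48 to 17 for Mecom.

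The sort gates used the products of some of these genes. LT-HSCs lie in the Lin-Sca1+Kit+ (LSK) compartment and those used for RNA were sorted as CD34-Flt3- cells, so that CD150 and CD48 were not part of their gate. CMPs, GMPs and MEPs were Lin-Kit+Sca1- cells separated by CD34 and FcγRII/III. Differences between populations in Ly6a and Cd34 may therefore be set by the sort and are given as description. The gates on CD34 and Sca-1 also apply to the genotype comparisons of Cd34 and Ly6a. The paper reports less surface CD34 on KO CMPs and GMPs. The part of the gates in those comparisons was not tested. Cd34 transcript was nonetheless present in the CD34- LT-HSC libraries, at 51.3 to 166 TPM. In bulk samples, fewer cells of a type and less RNA per cell cannot be told apart.

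Libraries held between 40804031 and 65930737 estimated counts on genes. The LT-HSC libraries were made with a kit for ultra-low input from other mice than the precursor libraries, so that population, kit and mice cannot be told apart between them. The WT LT-HSC library of mouse S245 stood apart, with at least 10 counts on 27191 genes against 18504 to 22407 in the other 3. Arid1a was at 26.8 ± 4.37 TPM (a unit corrected for transcript length and library size, here with the SD, n = 2) in WT LT-HSCs and 10.8 ± 0.171 in KO LT-HSCs, and at 80.7 ± 3.30 and 74.4 ± 5.27 (n = 3) in CMPs. Since the deletion removes 1 exon and these values sum all exons, they are a weak check of the labels. Kit was present in every library, with group means between 107 and 298 TPM. Erythroid markers (8 genes) summed to 1808 to 3433 TPM in the LT-HSC libraries and to 1008 to 1653 in CMPs.

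In the upstream sequence of 4 of the genes whose levels differed between genotypes, short motifs of hematopoietic factor families were sought. Each stretch ends just before the first exon base at the start it belongs to and is shown 5′ to 3′ on the gene's strand. Slamf1 and Cd48 are neighbors on chromosome 1, Fgd5 had the largest fold change among the 9 genes, and Mecom has several starts, of which that of the longer Mds1-Evi1 transcripts near 30509822 is shown. The Mecom stretch lies within the span of the gene, since Mecom-208 starts farther out at 30548008. Capitals mark motif matches.
Slamf1, chr1:171766882-171767126, plus strand: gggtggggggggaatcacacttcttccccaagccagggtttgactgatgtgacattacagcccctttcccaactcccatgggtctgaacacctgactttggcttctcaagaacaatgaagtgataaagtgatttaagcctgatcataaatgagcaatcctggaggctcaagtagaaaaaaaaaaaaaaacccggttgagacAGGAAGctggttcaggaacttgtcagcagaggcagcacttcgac
Cd48, chr1:171681742-171681991, plus strand: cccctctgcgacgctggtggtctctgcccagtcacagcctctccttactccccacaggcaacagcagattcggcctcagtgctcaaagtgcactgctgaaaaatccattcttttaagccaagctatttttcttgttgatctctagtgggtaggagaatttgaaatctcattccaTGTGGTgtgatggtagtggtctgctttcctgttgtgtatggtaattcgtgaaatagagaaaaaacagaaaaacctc
Fgd5, chr6:91978715-91978877, plus strand: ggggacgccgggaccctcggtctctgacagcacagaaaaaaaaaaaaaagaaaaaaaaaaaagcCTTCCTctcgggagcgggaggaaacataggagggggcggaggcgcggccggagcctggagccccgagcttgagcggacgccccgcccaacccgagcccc
Mecom, chr3:30509823-30510009, minus strand: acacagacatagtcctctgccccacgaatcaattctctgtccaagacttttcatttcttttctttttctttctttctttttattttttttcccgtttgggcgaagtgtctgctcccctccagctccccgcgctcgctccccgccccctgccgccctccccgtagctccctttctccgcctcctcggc
The sequences are those of RefSeq for GRCm38.p6, in which 8 of the 9 genes had an entry and Mecom had one for each of its main starts. In the full window of 250 bases before and 50 after each start, on both strands, the ETS motif AGGAAG was found in 4 of the 9 windows (Cd34, Slamf1, Cd48 and Fgd5), against 35.4% of 32851 mouse promoters. The RUNX motif TGTGGT was found in 1 window (Cd48; 16.8% of all promoters), the E-box CAGATG in 1 (Mecom, in bases not shown; 17.2%) and the GATA motif AGATAA in 0 (11.2%). No match overlapped another in these windows, and a match in letters is not a measured site.

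In WT mice, 7 of the 9 genes had their highest mean level in LT-HSCs, and Cd34 and Cd48 had theirs in CMPs. Levels between genes and between the kits are compared in TPM, which corrects for transcript length, and without a test. Ly6a stood highest in WT LT-HSCs with 644 TPM in mouse S245 and 473 in mouse S269, and the 2 libraries of Procr gave 162 and 119 TPM. Hlf was at 164 and 103 TPM, Cd34 at 166 and 84.8, and Mecom at 71.2 and 73.5. Fgd5 (22.2 and 18.9 TPM), Cd48 (11.8 and 23.4), Ctnnal1 (16.2 and 15.4) and Slamf1 (14.6 and 15.8) were lower, and these 4 lay within the range of the Cd48 libraries. In WT CMPs, the level as a share of that in LT-HSCs was 0.957% for Ly6a, 3.34% for Procr, 4.44% for Fgd5, 6.28% for Mecom, 18.5% for Hlf, 36.3% for Slamf1 and 37.7% for Ctnnal1. By CPM in place of TPM, the log2 level in WT CMPs over WT LT-HSCs of Hlf was -1.43 and not -2.44, and that of Ctnnal1 -0.58 and not -1.41. Cd34 and Cd48 were higher in WT CMPs than in WT LT-HSCs, at 351% and 783% of the level there.

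**Figure D1:**
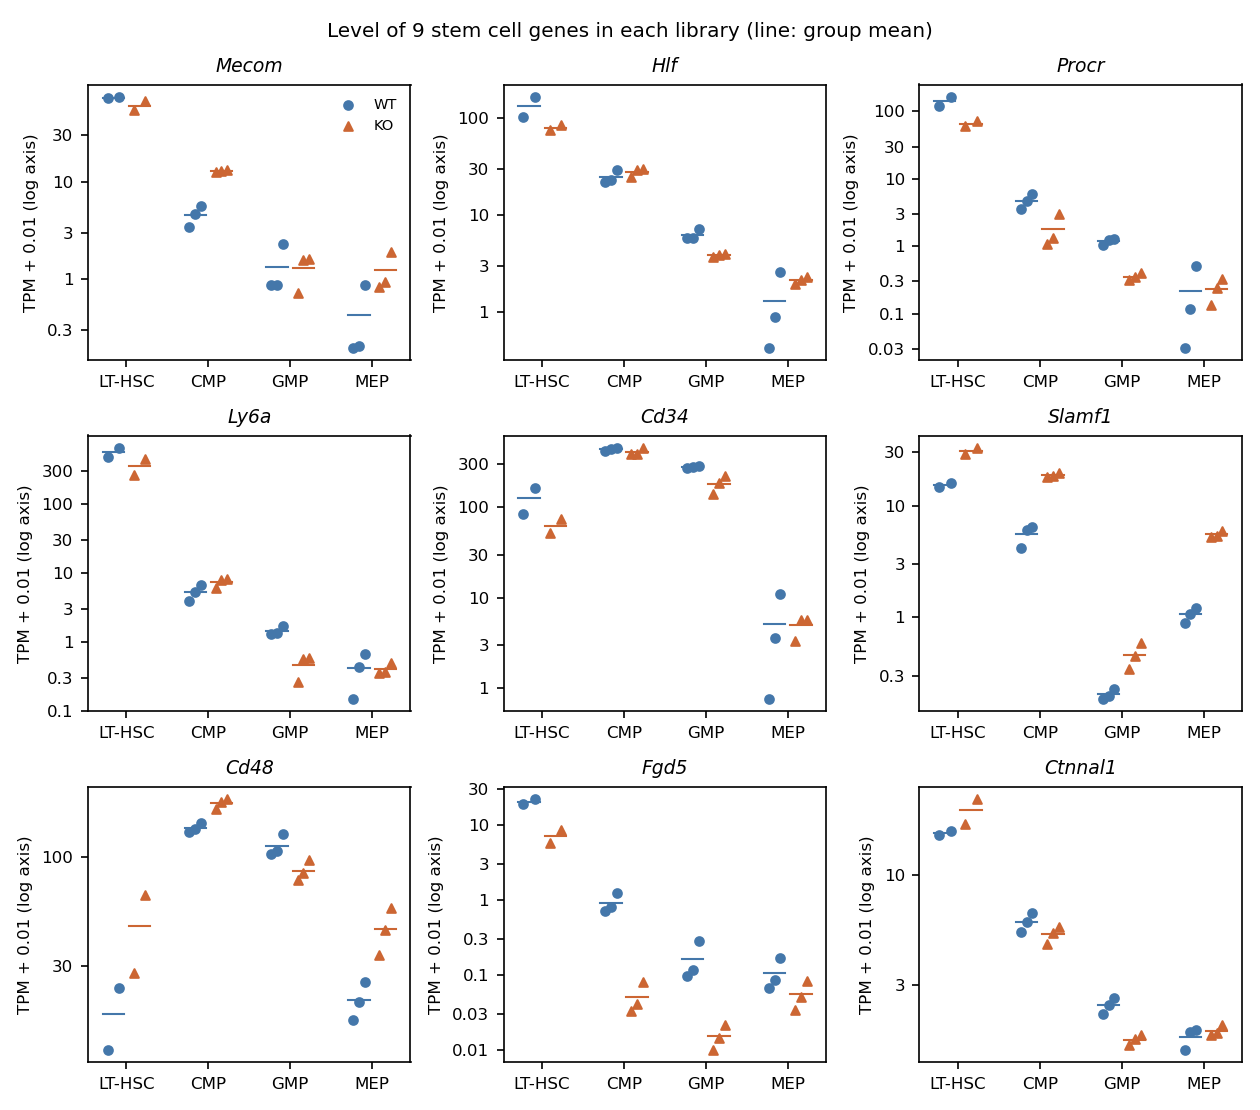
Level of each gene in every library, as TPM + 0.01 on a log axis, for LT-HSCs, CMPs, GMPs and MEPs, with circles for WT, triangles for KO and a line at each group mean. Of the 9 genes, 7 are highest in LT-HSCs, and the KO points of Slamf1 lie above the WT points in all 4 populations.

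Among WT precursors, where 1 kit and the same mice allow a test, the genes were spread from CMP down to MEP. From CMP to GMP, 7 of the 9 genes fell, against a background of 45.2% of 18523 tested genes called in either direction and 24.6% lower. Slamf1 fell most, from a mean of 5.53 ± 1.18 TPM (SD, n = 3) to 0.195 ± 0.0223, or by 4.58 on the log2 scale with a standard error of 0.20 (adjusted p = 1.12e-09). Fgd5 followed with -3.11, and Mecom, Hlf, Procr and Ly6a fell by 2.19, 2.0, 1.98 and 1.96 on the log2 scale and Ctnnal1 by 1.04. Cd34 and Cd48 did not pass the test between CMP and GMP, with log2 fold changes of -0.49 (standard error 0.39) and -0.15 (standard error 0.14). From CMP to MEP, all 9 genes fell (background 70.6%, with 37.1% lower), by between 1.53 for Ctnnal1 and 6.34 for Cd34 on the log2 scale. Between GMP and MEP (background 70.7%, with 35.4% higher and 35.3% lower in GMPs), 7 genes were higher in GMPs, Slamf1 was higher in MEPs (log2 fold change of GMP over MEP -2.54, standard error 0.22) and Fgd5 did not pass the test (0.60, standard error 0.46). In these counts Cd34 and Ly6a are description only. CMPs and GMPs were sorted as CD34+ and MEPs as CD34- cells, so the low Cd34 of MEPs may be set by the gate. All these populations were sorted as Sca1- cells.

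WT MEPs held little of most of these transcripts, and for Cd34, Hlf and Mecom 1 library weighed most in the mean. In the WT MEP library of mouse 300, Cd34 was at 10.9 TPM, against 0.742 in mouse 305 and 3.59 in mouse 309. Hlf was at 2.58 TPM in mouse 300, against 0.417 and 0.870, and Mecom at 0.872 against 0.197 and 0.188. This library was thus the highest of the 3 for each of these genes. Slamf1 was more even, at 1.21, 0.886 and 1.07 TPM in mice 300, 305 and 309. Ctnnal1 was lowest in mouse 300 (1.46 TPM, against 1.78 and 1.82), and Fgd5 was highest in mouse 309. Multipotent and lymphoid-primed markers (10 genes) summed to 41.6 TPM in mouse 300, 9.50 in mouse 305 and 43.5 in mouse 309, and the part of such cells in these values was not tested.

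In LT-HSCs, the question was whether loss of ARID1A alters the genes that define the population. None of the 9 genes passed the false discovery rate of 0.1 between KO and WT in edgeR's quasi-likelihood test. Of all 22733 genes tested, 0.0792% did (0.0264% higher and 0.0528% lower). DESeq2 called 1 of the 9, Slamf1, and 248 of all genes. Values within a population are given from here on as CPM (counts scaled to library size) after TMM normalization. Where libraries of the genotypes are said to overlap or not, this describes the values only. The share of all genes without such overlap was not counted, and with 2 libraries per genotype separation arises often by chance. The median log2 fold change of all tested genes was -0.16 in LT-HSCs, so that each value below is to be read against that shift, and that of the 9 genes was -0.39.

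Slamf1 and Cd48 both had higher estimates in KO than in WT LT-HSCs. Slamf1 stood at 26.3 and 33.5 CPM in WT and at 70.6 and 68.8 CPM in KO LT-HSCs, with a log2 fold change of 1.22, a standard error of 0.28 and an adjusted p of 0.378. Cd48 stood at 7.56 and 18.4 CPM in WT and at 51.5 and 24.4 CPM in KO, with a log2 fold change of 1.55, a standard error of 0.48 and an adjusted p of 0.712. The libraries of Cd48 spread widely within each genotype. Gm37010, annotated on the same strand and overlapping Cd48, ranged from 1.53 to 19.7 TPM over all libraries and reached 971 counts in a WT LT-HSC library, where Cd48 had 371 and 920. Fragments of the overlap are split between them, and the part of this in the Cd48 values was not tested. Without the filter for low counts both genes passed, with adjusted p = 0.0550 for Slamf1 and 0.0169 for Cd48.

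Procr, Cd34 and Fgd5 lay on the other side. Procr was at 112 and 101.6 CPM in WT and at 52.7 and 61.5 CPM in KO LT-HSCs (log2 fold change -0.90, standard error 0.28, adjusted p = 0.680). Fgd5 was at 77.6 and 92.1 CPM in WT and at 29.3 and 47.8 CPM in KO (-1.14, standard error 0.31, adjusted p = 0.597). Cd34 was at 263 and 164 CPM in WT and at 145 and 110.2 CPM in KO (-0.75, standard error 0.34, adjusted p = 0.876). Hlf (-0.54, standard error 0.32) and Ly6a (-0.39, standard error 0.34) also had lower estimates in KO.

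Mecom and Ctnnal1 did not share that direction. Mecom was at 150.4 and 162 CPM in WT and at 127 and 199 CPM in KO LT-HSCs, which overlap, with a log2 fold change of 0.06 (standard error 0.32). Ctnnal1 was at 24.5 and 28.3 CPM in WT and at 42.0 and 56.9 CPM in KO (0.91, standard error 0.30, adjusted p = 0.783). Each of the 4 libraries was also left out in turn, which leaves a single library in 1 genotype. That library is assumed to vary like those of the other genotype. The log2 fold change over these fits was 1.08 to 1.37 for Slamf1, 0.93 to 2.3 for Cd48 and 0.696 to 1.13 for Ctnnal1. It was -1.505 to -0.804 for Fgd5, -1.003 to -0.766 for Procr and -1.08 to -0.34 for Cd34. For Hlf it was -0.727 to -0.361, for Ly6a -0.712 to -0.072 and for Mecom, which changed sign, -0.27 to 0.37.

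The makeup of the LT-HSC libraries also varied. Mast cell and basophil markers summed to 14.3 and 4.68 TPM in WT and to 23.5 and 36.2 TPM in KO, and all 6 had a higher estimate in KO, although none passed the test. Multipotent and lymphoid-primed markers summed to 853 TPM in the KO library S244, which also had the highest Cd48, and to 315 to 442 TPM in the other libraries. Erythroid markers summed to 3433 TPM in the WT library S269 and to 1808 to 2181 TPM in the others. Endothelial markers (6 genes) summed to 67.3 and 50.5 TPM in WT and to 33.2 and 43.0 TPM in KO. Lymphocyte markers (8 genes) summed to 57.7 and 61.6 TPM in WT and to 29.6 and 38.9 TPM in KO. Of the 6 genes tested in each of these 2 lists, 5 had a lower and 1 a higher estimate in KO, and none passed the test. The part of these shifts in the values of the 9 genes was not tested.

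In CMPs, 5 of the 9 genes differed between genotypes, 3 higher and 2 lower in KO, against 23.4% of 17214 tested genes. Slamf1 was at 11.2, 12.1 and 8.06 CPM in WT and at 31.9, 34.9 and 32.1 CPM in KO CMPs. On the log2 scale KO was higher by 1.65 with a standard error of 0.14 (adjusted p = 0.000158). Mecom was at 11.4, 13.9 and 10.02 CPM in WT and at 24.2, 26.8 and 25.3 CPM in KO, which is 1.11 on the log2 scale with a standard error of 0.12 (adjusted p = 0.000492). All KO libraries lay above all WT libraries for both genes. Cd48 rose less, from 94.3, 107 and 101.5 CPM to 114, 126 and 130.3 CPM (log2 fold change 0.29, standard error 0.07, adjusted p = 0.0217), and did not pass in a fit of all 18 precursor libraries (adjusted p = 0.206).

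Fgd5 nearly vanished from KO CMPs. It was at 3.44, 2.76 and 2.72 CPM in WT and at 0.281, 0.0331 and 0.116 CPM in KO, or 469 counts in all against 21. The log2 fold change was -4.43, with a standard error of 0.49 (adjusted p = 0.000465), and the ratio of WT to KO counts was 22.7 (95% exact binomial interval 14.7 to 37.0, for counting error only). In CMPs Fgd5 passed the filter for low counts only through its WT libraries, so that only a lower level in KO could be called. Procr fell from 4.36, 3.57 and 2.95 CPM to 1.81, 0.727 and 1.14 CPM, or by 1.58 on the log2 scale with a standard error of 0.32 (adjusted p = 0.0101). No KO library reached a WT library for either gene. Hlf (0.05, standard error 0.12), Ly6a (0.38, standard error 0.25), Cd34 (-0.20, standard error 0.08, adjusted p = 0.105) and Ctnnal1 (-0.24, standard error 0.10, adjusted p = 0.151) did not pass. With the samples paired by a replicate block, which rests on the order of the mice only, Cd34 and Ctnnal1 passed as well, with adjusted p = 0.0215 and 0.0889.

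The makeup of the CMP libraries differed between genotypes. Of 8 erythroid markers, 7 were higher in KO CMPs and none was lower, and their sum ranged from 1008 to 1084 TPM in WT and from 1408 to 1653 TPM in KO. Of 8 granulocyte-monocyte markers, 6 were lower in KO, and their sum ranged from 4114 to 5198 TPM in WT and from 1802 to 2769 TPM in KO. No marker of either list was at 0 in any CMP library. Flt3, a gene of multipotent and lymphoid-primed cells, was at 78.4 ± 9.06 TPM in WT and 161 ± 33.2 TPM (SD, n = 3 each) in KO CMPs. Of the 10 markers of such cells, 5 were higher in KO and 0 lower. Megakaryocyte markers (8 genes) summed to 915 to 1314 TPM in WT and 715 to 728.5 TPM in KO, with 5 lower and 1 higher. Of 6 mast cell and basophil markers, 4 were lower in KO CMPs and 0 higher. The part of these shifts in the values of the 9 genes was not tested.

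**Figure D2:**
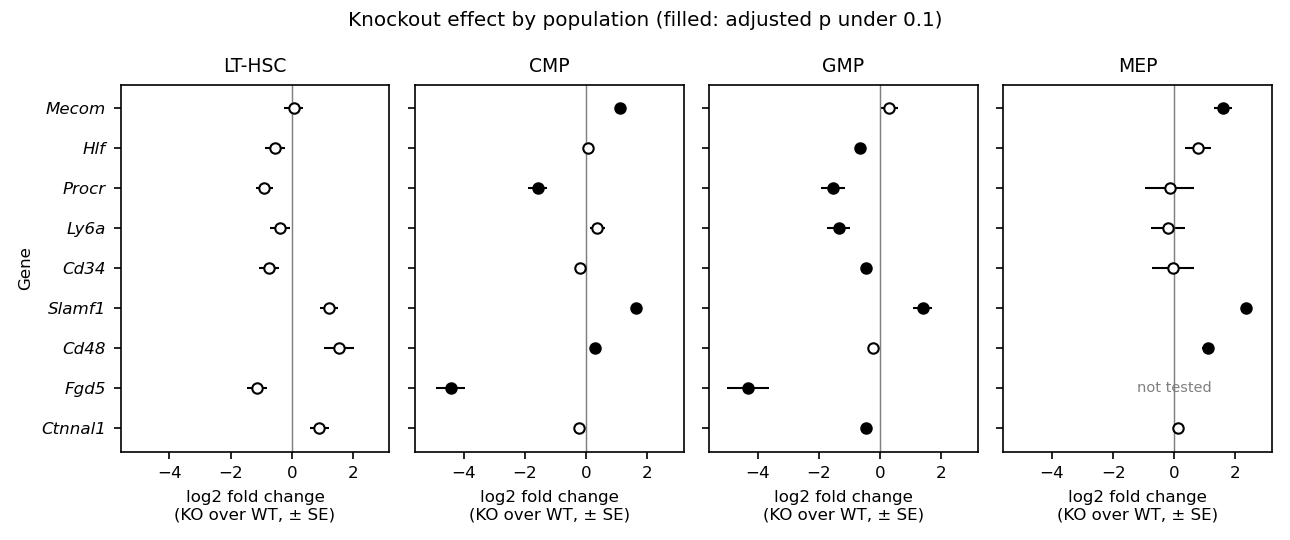
Log2 fold change of KO over WT with its standard error, by gene and population, from edgeR. Filled points passed an adjusted p of 0.1, which 0 genes did in LT-HSCs, 5 in CMPs, 7 in GMPs and 3 in MEPs, where Fgd5 was below the filter for low counts.

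In GMPs, 7 of the 9 genes differed, 6 of them lower in KO, against a background of 33.9% of 16383 genes in either direction and 16.3% lower. Fgd5 was at 18, 20 and 12 counts in the WT libraries and at 0, 1 and 1 count in the KO libraries, a ratio of 23.3 with a 95% exact binomial interval from 6.12 to 198. Its adjusted p was 0.00152. Fgd5 passed the filter for low counts in GMPs only through its WT libraries, so that only a lower level in KO could be called. Procr was at 0.602, 0.774 and 0.952 CPM in WT and at 0.189, 0.398 and 0.210 CPM in KO GMPs (log2 fold change -1.54, standard error 0.38, adjusted p = 0.0154). Ly6a was at 0.520, 0.754 and 0.522 CPM in WT and at 0.133, 0.279 and 0.287 CPM in KO (-1.36, standard error 0.39, adjusted p = 0.0297). These are low levels, and all 3 KO libraries were below all 3 WT libraries for each gene. Ly6a was moreover compared among cells sorted as negative for its product, and the part of that gate was not tested.

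Hlf and Cd34 were lower at levels well above the floor. Hlf was at 17.7, 15.2 and 16.1 CPM in WT and at 10.2, 10.2 and 10.3 CPM in KO GMPs (-0.67, standard error 0.09, adjusted p = 0.000652). Cd34 was at 474, 441 and 474 CPM in WT and at 388, 267 and 348 CPM in KO (-0.47, standard error 0.12, adjusted p = 0.0189). Ctnnal1 fell from 5.33, 5.61 and 5.41 CPM to 4.05, 3.52 and 4.26 CPM (-0.47, standard error 0.14, adjusted p = 0.0365). Cd34 did not pass in a fit of all 18 precursor libraries (adjusted p = 0.505), nor Ctnnal1 on log2(TPM + 1) in limma (adjusted p = 0.107).

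Slamf1 alone rose in KO GMPs, from 0.341, 0.348 and 0.448 CPM to 0.739, 0.975 and 1.28 CPM (log2 fold change 1.39, standard error 0.32, adjusted p = 0.0103). Cd48 had a log2 fold change of -0.24, with a standard error of 0.10 (adjusted p = 0.1004), which just missed the threshold, with adjusted p = 0.00862 when the samples were paired by a replicate block. Mecom was at 1.79, 3.29 and 1.77 CPM in WT and at 2.84, 3.50 and 2.03 CPM in KO, which overlap (0.29, standard error 0.30). All 6 mast cell and basophil markers were lower in KO GMPs, and their sum ranged from 780 to 1246 TPM in WT and from 127 to 176 TPM in KO. Endothelial markers summed to 60.6 to 69.7 TPM in WT and to 44.0 to 47.1 TPM in KO GMPs, with 3 of the 4 tested lower and 0 higher. Granulocyte-monocyte markers went the other way, with sums of 31440 to 36798 TPM in WT and 40526 to 45510 TPM in KO. The part of these shifts in the levels of the 9 genes was not tested.

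In MEPs, 3 of the 8 genes that could be tested differed, all higher in KO, against a background of 29.4% of 15777 genes in either direction and 14% higher. Slamf1 rose most, from 2.47, 1.84 and 2.23 CPM to 10.5, 11.6 and 11.2 CPM, or by 2.34 on the log2 scale with a standard error of 0.15 (adjusted p = 3.98e-05). Cd48 was at 19.4, 12.8 and 15.9 CPM in WT and at 34.0, 42.7 and 27.3 CPM in KO (1.11, standard error 0.19, adjusted p = 0.00442). Mecom was at 1.2, 0.612 and 0.696 CPM in WT and at 2.26, 2.39 and 3.07 CPM in KO (1.61, standard error 0.29, adjusted p = 0.00601). The genotypes did not overlap for these 3 genes. Mecom did not pass with an offset for transcript length (adjusted p = 0.120).

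The other genes overlapped between genotypes in MEPs. Hlf was at 6.55, 1.58 and 3.12 CPM in WT and at 6.50, 5.55 and 7.50 CPM in KO MEPs, with a log2 fold change of 0.79, a standard error of 0.43 and an adjusted p of 0.244. Without the WT library of mouse 300 it was 1.47 (adjusted p = 0.0183). Cd34 was at 19.1, 1.41 and 6.62 CPM in WT and at 5.87, 10.03 and 10.6 CPM in KO, which gives -0.04 with a standard error of 0.70. Procr (-0.15, standard error 0.81), Ly6a (-0.20, standard error 0.56) and Ctnnal1 (0.11, standard error 0.14) did not pass. Fgd5, with 30 counts over the 3 WT libraries and 24 over the KO libraries, was too low to test, and the ratio of 1.42 had a 95% exact binomial interval from 0.802 to 2.54. Of 8 megakaryocyte markers, 5 were higher in KO MEPs and their sum ranged from 33.1 to 62.1 TPM in WT and from 90.7 to 115 TPM in KO, and its part in these values was not tested.

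Whether the effect of KO itself differed between precursors was tested as an interaction. Between GMP and MEP, 5 genes that were tested in both populations passed (background 26.8% of 18523, with 14.6% higher and 12.2% lower), namely Mecom, Hlf, Slamf1, Cd48 and Ctnnal1, and for each the effect in GMP was below that in MEP. The difference was -1.51 for Hlf (standard error 0.32, adjusted p = 0.00407), -1.33 for Cd48 (standard error 0.21, adjusted p = 0.00045) and -0.57 for Ctnnal1 (standard error 0.15, adjusted p = 0.0158). It was -1.26 for Mecom (adjusted p = 0.0315), which did not pass without WT mouse 305 or KO mouse 308 (adjusted p up to 0.147), and -0.94 for Slamf1 (adjusted p = 0.0434), which did not pass without KO mouse 301, KO mouse 304 or WT mouse 309 (adjusted p up to 0.137). Between MEP and CMP (background 13.1%, with 5.67% higher and 7.38% lower), the effect was higher in MEP for Cd48 (0.82, standard error 0.21, adjusted p = 0.0225) and Slamf1 (0.68, standard error 0.22, adjusted p = 0.0707). The call for Slamf1 was lost in 5 of the 6 fits with a mouse left out, all but that without WT mouse 309 (adjusted p up to 0.222), and that for Cd48 in 1, without WT mouse 309 (adjusted p = 0.105). Fgd5 was below the filter in MEPs and entered these joint fits only through other populations, so no difference that involves its MEP level is given. Between GMP and CMP, Ly6a alone passed (background 21%, with 10.9% higher and 10% lower), with a difference of -1.77 (standard error 0.48, adjusted p = 0.0226). Slamf1 did not pass between GMP and CMP (-0.27, standard error 0.30).

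Against LT-HSCs, Fgd5 and Ctnnal1 had lower effects of KO in CMP, with differences of -3.30 and -1.14 (background 2.23%, with 0.848% higher and 1.38% lower). Cd48, Fgd5 and Ctnnal1 had lower effects in GMP, with -1.79, -3.23 and -1.38 (background 4.03%, with 1.58% higher and 2.44% lower). Mecom and Slamf1 had higher effects in MEP, with 1.53 and 1.13 (background 2.09%, with 0.819% higher and 1.27% lower). With 1 library left out, the call was lost in 3 of 10 fits for Fgd5 in CMP and in GMP, in 7 for Ctnnal1 in CMP, in 0 for Ctnnal1 in GMP, in 7 for Cd48 in GMP, in 6 for Mecom and in 8 for Slamf1 in MEP. None of these 7 passed when limma gave each kit its own weight, and the mice, the kit and the population change together here. The log2 fold change of Ctnnal1 was 0.91 in LT-HSCs, -0.24 in CMPs and -0.47 in GMPs, of which only that in GMPs passed its own test.

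As shares of the LT-HSC level, Mecom in CMPs stood at 6.28% in WT and 21.3% in KO, Slamf1 at 36.3% and 60.3%, Hlf at 18.5% and 35%, and Fgd5 at 4.44% and 0.582%. The shares are in TPM, while the test of whether these steps differ is made on counts. It is the difference of the KO effect between CMP and LT-HSC. Fgd5 passed it in edgeR as given above, but not in limma with a weight for each kit (adjusted p = 0.411). Mecom (1.05, adjusted p = 0.106), Hlf (0.61, adjusted p = 0.278) and Slamf1 (0.43, adjusted p = 0.449) did not pass it in edgeR. An unequal loss was thus not shown for Hlf and Slamf1. For Mecom the call depended on the processing, since it passed in DESeq2 (adjusted p = 0.00905) and in edgeR with no filter (adjusted p = 0.000848).

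Mecom was examined by the start of its transcripts, since its Mds1 and Evi1 starts give proteins with and without a PR domain. Transcripts that begin at the distal Mds1 start held 54.7% ± 7.95 (SD, n = 3) of the estimated counts of Mecom in WT CMPs and 58.0% ± 9.45 in KO CMPs. Those from the proximal Evi1 start held 28.6% ± 6.17 in WT and 24.9% ± 2.23 in KO. These shares of counts thus differed between genotypes by less than the larger SD. By share of TPM, the proximal start held 25.8% in WT and 17.7% in KO CMPs, and starts of neither class 23.6% and 38.7%. The mean counts of both classes were higher in KO, at 794 against 331 for the distal start and 339 against 172 for the proximal start. In GMPs the proximal start held 5.0% ± 4.91 in WT and 2.49% ± 1.11 in KO, on means of 6.54 and 3.85 counts. In LT-HSCs it held 30.5% ± 7.26 (n = 2) in WT and 38.8% ± 5.09 in KO. kallisto splits fragments of shared exons between transcripts, so these shares are estimates. By TPM, Mecom in CMPs rose from 4.60, 5.64 and 3.38 to 13.1, 12.5 and 12.8, a larger step than in counts, and Mecom-201, a transcript of 348 bases, held 20.4% of the TPM but 1.2% of the counts in KO CMPs.

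**Figure D3:**
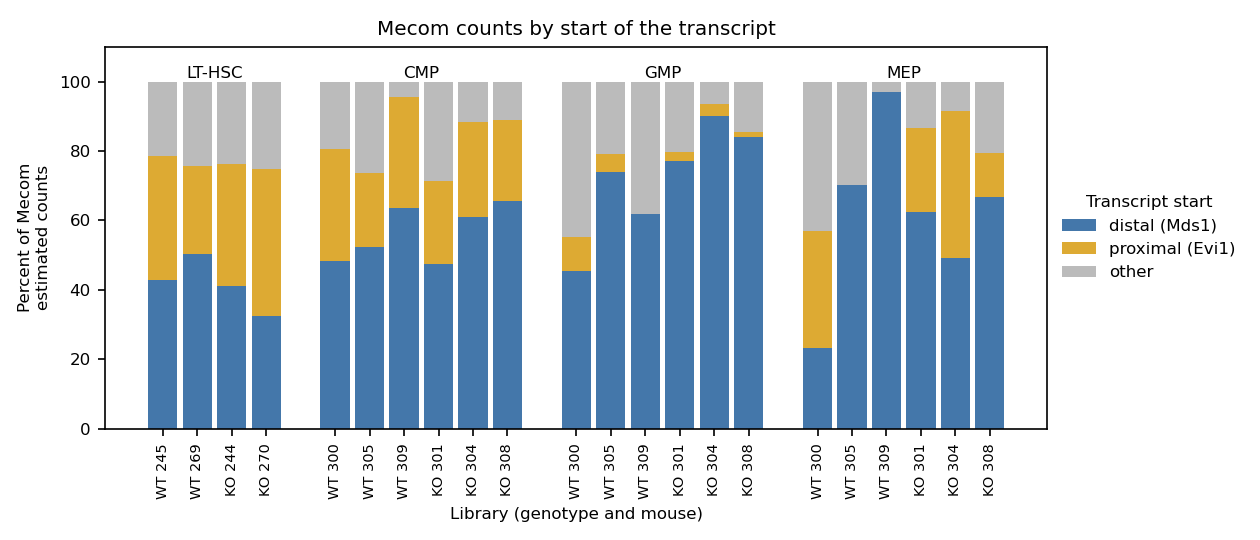
Stacked bars of the percent of the estimated counts of Mecom in each library that fell on transcripts from the distal (Mds1) start, the proximal (Evi1) start or any other start. The proximal share was 28.6% in WT and 24.9% in KO CMPs and 5.0% and 2.49% in GMPs, and WT MEP libraries, with few counts, scatter most.

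Slamf1 and Cd48 each showed a dominant form. Slamf1-201 held 95.4% and Cd48-202 99.0% of their gene's TPM in WT CMPs, and both code for protein. Cd34 was split between Cd34-201 (53.2%) and Cd34-202 (46.2%). In the same libraries the leading form held 79.5% for Ctnnal1, 75.2% for Fgd5, 62.6% for Hlf, 53.1% for Ly6a, 51.2% for Procr and 25.5% for Mecom. The antisense transcripts Mecomos and Gm16897, which overlap Mecom and Cd34, reached at most 4.55 and 4.25 TPM in any library. The kits are not stated to keep the strand, so that reads of overlapping genes cannot be told apart. Ly6a shares sequence with other Ly6 genes, and its low values outside LT-HSCs are uncertain for that reason.

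Relatives of the 9 genes did not all share their direction. Of the other SLAM family genes, Slamf6 (log2 fold change 2.51, adjusted p = 0.000238) and Cd244a (1.05, adjusted p = 0.00172) were higher and Ly9 (-0.47, adjusted p = 0.0131) was lower in KO CMPs, of 5 tested. Prdm16, the PR domain relative of Mecom, fell by 1.38 on the log2 scale in KO CMPs (adjusted p = 0.000837) and by 1.2 in KO GMPs (adjusted p = 0.00158), where Mecom did not fall. Tef, a PAR bZIP relative of Hlf, fell by 0.66 in KO GMPs (adjusted p = 0.0024), as Hlf did, and by 0.93 in KO MEPs (adjusted p = 0.00023). Of the 3 relatives of Hlf tested in GMPs, 1 was higher and 1 lower in KO. Thbd, which encodes thrombomodulin of the pathway that makes the ligand of EPCR, rose in KO CMPs, GMPs and MEPs, by 0.66, 1.37 and 2.93 on the log2 scale (adjusted p = 0.00409, 3.19e-06 and 0.00556). It was the only 1 of 3 tested genes of that pathway to pass as higher. In KO CMPs 1 of the 3 was lower. Of the 5 other Fgd genes, Fgd1 was lower in KO CMPs (-0.73, adjusted p = 0.00311), GMPs (-0.87, adjusted p = 0.0291) and MEPs (-0.76, adjusted p = 0.0646). Fgd6 was higher in KO CMPs (1.69, adjusted p = 0.00213) and MEPs (0.74, adjusted p = 0.000375). In KO GMPs, Fgd2 (0.81, adjusted p = 0.00925), Fgd3 (0.79, adjusted p = 0.000215) and Fgd4 (0.46, adjusted p = 0.0475) were higher, and in KO MEPs Fgd3 was lower (-1.01, adjusted p = 0.00278).

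A list of 28 other stem cell genes was examined in the same way. In LT-HSCs none of the 28 passed, as with the 9 genes. In CMPs 4 were higher and 11 lower (all genes 10.6% and 12.8%), with Ifitm1 (2.85) and Ndn (2.84) at the top and Robo4 (-2.34) and Esam (-1.69) at the bottom of the log2 fold changes. In GMPs 2 of 26 tested were higher (Ndn with 2.55 and Ifitm1 with 2.06) and 15 lower (all genes 17.5% and 16.3%), with Tek, a receptor for angiopoietin, at -2.47, and their median was -0.49 against -0.01 for all genes. Robo4, with the lowest estimate there, was at 0.273 CPM in WT GMPs and 0.0254 CPM in KO GMPs. In MEPs 7 of 27 were higher and 2 lower (all genes 14% and 15.4%), led by Ifitm1 (3.52) and Ndn (2.09), while Pdzk1ip1 (-0.92) and Gfi1b (-0.37) fell. The median of the 9 genes was -0.47 in GMPs and 0.45 in MEPs, over the 8 tested there.

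**Figure D4:**
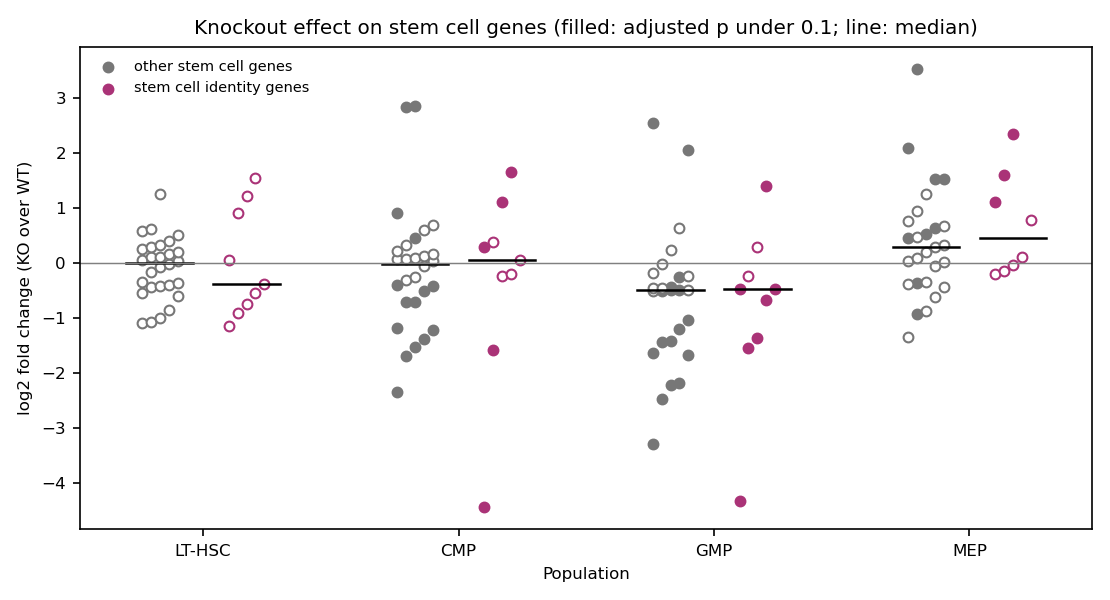
Log2 fold change of KO over WT for the other stem cell genes (grey) and the 9 stem cell identity genes (purple) in each population, with filled points past an adjusted p of 0.1 and a line at each median. In GMPs 15 of 26 other genes and 6 of the 9 passed the test as lower in KO, and in LT-HSCs no point of either set passed.

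The genes whose profile was most like 8 of the 9 over the 18 precursor libraries are given as description, since these libraries share 3 populations and 6 mice and most of the likeness is between populations. Hlf was closest to Meis1, a homeobox gene of stem cells (Pearson r = 0.989), Cd34 to Bex6 (0.996), Cd48 to Ier5l (0.979) and Ctnnal1 to Prkg1 (0.983). Slamf1 was closest to Gem (0.985), which was at 3.72 TPM in WT and 8.98 TPM in KO CMPs. Mecom was closest to Col4a1 (0.976), at 2.53 and 5.20 TPM, Ly6a to Pear1 (0.957) and Fgd5 to Phactr1 (0.915).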

How the data were processed

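Bulk RNA-seq of sorted LT-HSCs, CMPs, GMPs and MEPs was analysed. The authors aligned 100 bp paired-end reads with kallisto 0.43.1 to Ensembl 84 mouse transcripts (mm10) and deposited, for each library, an estimated count and a TPM value per transcript. In the deposited estimated counts, fragments shared by transcripts are split between them. LT-HSC libraries came from the SMART-Seq v4 kit and the others from TruSeq. The submitters' notes and the study name DESeq2 for its own tests.

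Transcripts were paired with GENCODE vM21 genes (114200 of 115088, 99.2%), which left out at most 0.363% of a library's counts, and summed per gene. Counts were rounded and tested with edgeR 4.0.16 in R 4.3.3 (TMM, filterByExpr, quasi-likelihood F-test, Benjamini-Hochberg adjustment over all tested genes, FDR 0.1), in each population apart with the genotype as the term. Precursor populations and interactions used 1 fit of 18 libraries that blocks on the mouse, and interactions with LT-HSCs over 10 libraries. Standard errors are the log2 fold change over the square root of F. No source says that samples of a group were pooled, and each is 1 mouse. Where samples were paired across genotypes, the pairing follows the order in which the study lists the mice. Deviations from group means of the paired samples correlated with r from 0.33 to 0.52 in CMPs and 0.43 to 0.56 in GMPs, but from 0.013 to 0.50 in MEPs, and with r = 0.295 in LT-HSCs, where only 2 pairs exist. The 9 genes and all lists were chosen with earlier results of these data known. All 9 genes are named in every comparison, with 2 genes of largest rise and fall from the list of other stem cell genes, and the most correlated gene by log2 CPM, which for Procr is not reported here. Neither library kit is stated to be stranded. Alternatives were size factors, no filter, DESeq2 1.42.0, a length offset, blocks, limma 3.58.1 on log2(TPM + 1) or with voom weights per kit, 1 fit of all precursors, and each library left out. Some of the main edgeR fits were first tested on simulated data in which the changed genes were known. These were KO against WT in each population, GMP against CMP, and the differences GMP less CMP and CMP less LT-HSC. The other comparisons and the alternatives were not tested in this way.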

Additional observations from a re-analysis of the deposited data

Results flagged for a closer look

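In 15 cases the effect of KO on a gene differed between populations by a test of the difference itself, at an adjusted p of 0.1 in edgeR's interaction test. Each value is the log2 fold change of KO over WT in the first population less that in the second. Between GMP and MEP the difference was -1.26 for Mecom and -0.94 for Slamf1, calls lost in 2 and 3 of 6 fits with a mouse left out. For Hlf, Cd48 and Ctnnal1 the difference was -1.51, -1.33 and -0.57. Between MEP and CMP it was 0.68 for Slamf1, a call that was lost in 5 of 6 fits with a mouse left out, and 0.82 for Cd48. Fgd5 was below the filter in MEPs and is not given there. Between GMP and CMP it was -1.77 for Ly6a, whose product Sca-1 was part of the gate of both populations.

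Against LT-HSCs, the difference was -3.30 for Fgd5 and -1.14 for Ctnnal1 in CMP. In GMP it was -1.79 for Cd48, -3.23 for Fgd5 and -1.38 for Ctnnal1. In MEP it was 1.53 for Mecom and 1.13 for Slamf1. Kit, mice and population cannot be told apart in these 7 differences, and none of them passed when limma gave each kit its own weight.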

How the results depend on the processing

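No gene called in a comparison changed its sign under any alternative run. With 1 library or mouse left out, 318 results for single genes past the threshold stayed past it and 46 did not, and under the other settings 251 stayed and 12 did not. The LT-HSC results depended most on the processing. The number of the 9 genes called between KO and WT LT-HSCs was 2 with no filter for low counts, 1 in DESeq2 and from 0 to 7 with 1 library left out (7 without WT mouse S269). Of all genes, 18 were called there, against 286 with no filter, 248 in DESeq2, 115 with the replicate block, 1 by limma on log2(TPM + 1) and from 50 to 2516 with 1 library left out. In GMPs, limma on log2(TPM + 1) called 3 of the 9.

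With WT and KO samples paired by the replicate block, the number of the 9 genes called was 0 in LT-HSCs, 7 in CMPs, 8 in GMPs and 4 in MEPs, where Hlf joined (0.98, adjusted p = 0.0671). Pairing in MEPs and LT-HSCs rests on a shared position only. Without the mouse block, the counts in the fits of 18 libraries were the same.

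For the difference of the KO effect between GMP and CMP, 4 genes were called with no filter and from 1 to 3 with 1 mouse left out (3 without WT mouse 300 or 305). Between CMP and LT-HSC, 5 were called with no filter, 4 in DESeq2, 0 by limma voom with a weight for each kit and from 0 to 6 with 1 library left out. Voom with these weights also called 0 in GMP and MEP against LT-HSC, where leaving out 1 library gave from 1 to 3 and from 0 to 3. Of all genes, 530, 955 and 492 were called in CMP, GMP and MEP against LT-HSC, with no filter 1720, 1786 and 1316, in DESeq2 1930, 1940 and 1705, by voom 0, 17 and 44, and with 1 library left out from 32 to 6407, 388 to 5728 and 146 to 6475. The lowest counts with 1 left out were 3037 of 4637 in MEP (without KO mouse 301), 2577 of 3885 for GMP less CMP and 1464 of 2418 for MEP less CMP (both without WT mouse 309).

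Values that changed sign were all short of the threshold. Mecom in LT-HSCs was -0.025 with a length offset, -0.27 by limma on log2(TPM + 1) and from -0.27 to 0.37 with 1 library left out. In MEPs, Procr was 0.24 and Cd34 0.48 with the replicate block, and Cd34 0.34 by limma on log2(TPM + 1). With 1 library left out, the range was -0.64 to 1.59 for Procr, -0.55 to 1.14 for Cd34 and -0.59 to 0.53 for Ly6a in MEPs, and -0.016 to 0.19 for Hlf in CMPs. For GMP less CMP it was -0.65 to 0.55 for Procr, -0.72 to 1.51 for Fgd5 and -0.49 to 0.039 for Slamf1, and for MEP less CMP -0.87 to 0.20 for Ly6a and -0.26 to 1.41 for Cd34. For GMP less LT-HSC it was -0.041 to 0.34 for Slamf1, -0.10 to 0.59 for Mecom and -0.15 to 0.55 for Cd34, and for MEP less LT-HSC -0.23 to 0.92 for Ly6a and -1.27 to 0.18 for Cd48. The cause was not tested for any of these.

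With 2 LT-HSC libraries per genotype, a missed threshold does not show equal levels. Fgd5, Procr and Ly6a had few counts in GMPs and MEPs, which limits their fold changes.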
